A study of Zea mays with 4 samples.

Results

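Transcript levels of 4 genes known from the aleurone and from oil bodies were followed in maize endosperm, the part of the kernel that stores starch and protein, in kernels of a mutant labelled dek and in wild-type (WT) kernels. The genes were chosen by identifier: ole1 (GRMZM2G337229), glb3 (GRMZM2G410134), pac1 (GRMZM2G058432) and sal1 (GRMZM2G117935), 4 of the 34567 genes listed in any library. The choice was made with earlier results of these data known. RNA sequencing covered 2 dek libraries and 2 WT libraries, called A and B in each genotype, all from endosperm collected 10 days after pollination. Each library was a pool of 8 to 10 individuals from segregating ears, so p-values refer to variation between pools and not between kernels. No label says which gene is mutated, so no transcript could serve as a check of the genotypes. All 4 genes were read in every library and passed the low-count filter.

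The aleurone is the outermost cell layer of the cereal endosperm. Its cells keep protein bodies and oil bodies and, in pigmented lines, anthocyanins, while the starchy endosperm below fills with starch and zein storage proteins. Oil bodies are droplets of triacylglycerol coated with oleosins, caleosins and steroleosins, and they are abundant in the aleurone and in the embryo. Of the 4 genes, ole1 encodes an oleosin of the oil-body coat and glb3 a globulin storage protein. The pac1 locus is required for anthocyanin pigment in the aleurone, and sal1 encodes an endosomal sorting protein that restricts the number of aleurone cell layers. Whether GRMZM2G058432, called pac1 here, is that pigment locus is in doubt, as described below.

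In dek endosperm the oil-body gene ole1 and the globulin gene glb3 fell, while pac1 and sal1 did not pass the test. The 2 genes that passed, of 4, compare with 16.8% of the 24624 genes tested that passed in either direction and 8.85% that were lower (quasi-likelihood test of edgeR, with adjustment by Benjamini-Hochberg and a threshold of 0.05). None of the 4 was called higher, against 7.98% of all genes. Because these genes and the lists below were chosen with earlier results of these data known, such shares are a description only. For the 4 genes the median log2 fold change was -0.92, and over all genes tested it was 0.01. Log2 fold changes were computed after TMM scaling, which evens out the bulk of genes between libraries, and lie about 0.307 below ratios scaled to total counts. FPKM values, fragments per kilobase of effective length scaled to the size of the library, do not use these factors. With 2 libraries a genotype, the smallest p that a two-sided permutation of labels could give is 0.333, so every p-value rests on the fitted model.

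The oleosin gene ole1 had 82.65 and 77.91 FPKM in dek A and B, against 547.82 and 595.65 FPKM in WT A and B. The libraries of a genotype lay close together and the genotypes were far apart. Non-overlap alone is common here, since FPKM of the genotypes did not overlap for 68.0% of the genes tested. The same limit holds wherever both dek libraries are said below to lie on one side of both WT libraries. The estimated counts behind these levels were 1169 and 1097 in dek A and B, and 7612 and 7466 in WT A and B. After TMM scaling, ole1 was 8.78-fold lower in dek, a log2 fold change of -3.13 ± 0.125 (SE; 95% confidence interval -3.44 to -2.83; edgeR adjusted p = 0.000401). Among all listed genes, ole1 ranked 1375 and 1507 by FPKM in dek A and B, and 141 and 134 in WT A and B. It thus stood among the most abundant transcripts of WT endosperm and well below them in dek endosperm.

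The storage globulin gene glb3 had 314.36 and 383.63 FPKM in dek A and B, against 708.11 and 958.05 FPKM in WT A and B. Both dek libraries were below both WT libraries, and the WT libraries differed from each other by more than the dek libraries did. The mean was 349 ± 49 FPKM in dek and 833 ± 177 FPKM in WT (SD, n = 2 each). After TMM scaling, glb3 was 2.94-fold lower in dek, a log2 fold change of -1.56 ± 0.196 (SE; 95% confidence interval -2.04 to -1.07; edgeR adjusted p = 0.00896). The intervals of glb3 and ole1 did not overlap; the difference between their fold changes was not tested. In every library glb3 was the most abundant of the 4 genes, at rank 325 and 250 of the listed genes in dek A and B, and rank 95 and 66 in WT A and B.

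The gene described as pale aleurone color 1, pac1, had 124.74 and 147.88 FPKM in dek A and B, against 110.4 and 103.13 FPKM in WT A and B. On the FPKM scale both dek libraries were above both WT libraries. On the TMM-scaled scale they overlapped, with 75.0 and 91.5 CPM (counts scaled to library size) in dek A and B and 83.2 and 77.2 CPM in WT A and B. The log2 fold change was 0.05 ± 0.142 (SE; 95% confidence interval -0.3 to 0.4; edgeR adjusted p = 0.825). That interval holds levels from 0.814 to 1.32 times the WT level. The sign depended on the libraries used, since the log2 fold change was -0.00424 without WT B and -0.115 without dek B.

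The identity of this pac1 model is in doubt. Its deposited orthology term names TIM13, a subunit of the mitochondrial protein import machinery, although its description names the pigment locus. The RefSeq table gives the name pac1 to 2 adjacent genes, and the other one, GRMZM2G058292, is described as TRANSPARENT TESTA GLABRA 1, the WD40 regulator of pigment and epidermal cell fate known from Arabidopsis. GRMZM2G058292, named here for its shared name, had 8.19 and 9.71 FPKM in dek A and B, against 4.39 and 5.33 FPKM in WT A and B. Its genotypes did not overlap on the FPKM scale, and its log2 fold change of 0.58 ± 0.207 (SE) did not pass (edgeR adjusted p = 0.11). With scaling to total counts alone it passed, at 0.884 and an edgeR adjusted p of 0.0322. The model with the TIM13 term was the more abundant of the pair in every library. RefSeq also lists GRMZM2G058292 as WD40.1, and its model is longer, at 2008 bases against 717. Which of the pair is the pigment gene was not tested, so values given here as pac1 are those of GRMZM2G058432 alone. They may not be those of the pigment gene.

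The endosomal sorting gene sal1 had 67.23 and 67.27 FPKM in dek A and B, against 61.27 and 72.02 FPKM in WT A and B. On the FPKM scale the dek values lay between the WT values, so the genotypes overlapped. On the TMM-scaled scale they did not, with 69.9 and 72.1 CPM in dek A and B and 80.1 and 93.2 CPM in WT A and B. After TMM scaling the log2 fold change was -0.29 ± 0.128 (SE; 95% confidence interval -0.6 to 0.03; edgeR adjusted p = 0.178), an interval that holds levels from 0.658 to 1.02 times the WT level. With scaling to total counts alone the estimate was 0.0198. Of the 4 genes, sal1 had the lowest level in every library.

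**Figure D1:**
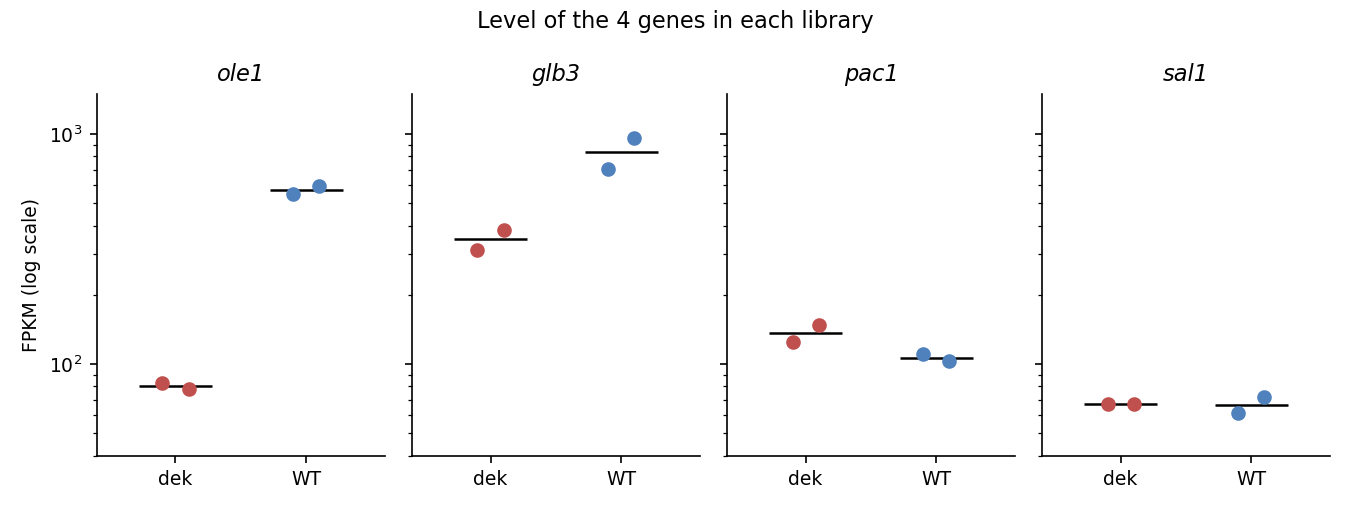
FPKM of ole1, glb3, pac1 and sal1 on a log axis, with 1 point for each library, dek left and WT right, and a line at the mean of each genotype (n = 2). The dek points of ole1 (82.65 and 77.91) and glb3 (314.36 and 383.63) lie below all of their WT points, and the sal1 points of the genotypes overlap on this scale. Genotypes did not overlap for 68.0% of all genes tested.

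The order of the 4 genes differed between the genotypes. In dek, glb3 was highest, followed by pac1, ole1 and sal1. In WT, glb3 was highest, followed by ole1, pac1 and sal1. No neighbours in either order overlapped between libraries of a genotype. The closest were ole1 and sal1 in dek, with means of 80.3 ± 3.35 and 67.2 ± 0.0283 FPKM (SD, n = 2).

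Ratios of genes within a library do not depend on the scaling between libraries. The ratio of ole1 to sal1 was 1.23 and 1.16 in dek A and B, against 8.94 and 8.27 in WT A and B. The ratio of glb3 to sal1 was 4.68 and 5.7 in dek A and B, against 11.6 and 13.3 in WT A and B. Both ratios were lower in each dek library than in each WT library. The ratio of ole1 to glb3 was also lower, at 0.263 and 0.203 in dek A and B and 0.774 and 0.622 in WT A and B. The ratio of pac1 to sal1 was 1.86 and 2.2 in dek A and B and 1.8 and 1.43 in WT A and B, a narrower gap than for the other ratios.

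In bulk endosperm, fewer cells of a type and less RNA per cell cannot be told apart. Markers of other kernel tissues are therefore set beside these results as summed FPKM. The 30 starchy endosperm genes summed to 4273 and 6947 in dek A and B, against 66961 and 63397 in WT A and B. All 28 that were tested were called lower, against 8.85% of all genes, with log2 fold changes from -11.26 to -1.91 and a median of -8.0. The 2 with the highest mean FPKM were the 27-kDa gamma-zein gene gz27 (GRMZM2G138727) at -2.24 ± 0.243 and the delta-zein gene dzs10 (BGI_novel_G003037) at -4.81 ± 0.439 (log2, SE). The 7 basal transfer layer genes summed to 6007 and 4096 in dek A and B, against 2184 and 612 in WT A and B. None of the 6 tested passed, where 16.8% of all genes did. Their log2 fold changes were all above 0, from 1.21 to 1.99, with a median of 1.71. The 6 embryo-surrounding region genes summed to 165 and 172 in dek A and B, against 115 and 22.5 in WT A and B. None of 5 tested passed, and their median log2 fold change was 0.51. WT B was thus the low library for both of these tissues. The basal layer gene bap2 (GRMZM2G152655) passed with all 4 libraries in both limma fits on FPKM (adjusted p = 0.0405 and 0.0459). Without WT A, bap2 passed at an edgeR adjusted p of 0.00244, and the transfer layer gene betl1 (GRMZM2G082799) at 0.0033. The embryo-surrounding region genes GRMZM2G315601 (0.0012) and esr6 (GRMZM2G048353, 0.00207) then passed as well.

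Embryo tissue also makes oleosins and globulins. The 5 embryo markers found summed to 39.7 and 41.0 FPKM in dek A and B, against 42.2 and 43.7 FPKM in WT A and B. Of the 3 tested, 1 was called lower, where 8.85% of all genes were. It was the embryo globulin 1 gene glb1 (GRMZM2G067919), which is also counted among the globulins below. The median log2 fold change of the 3 was -0.79. Most of the sums came from glb1, with 16.26 and 11.46 FPKM in dek A and B against 21.64 and 22.9 FPKM in WT A and B, and from wox2A (GRMZM2G108933). The gene wox2A had 22.13 and 28.09 FPKM in dek A and B against 17.11 and 20.26 FPKM in WT A and B, and did not pass (edgeR adjusted p = 0.667). The defining embryo gene lec1 stayed at or below 2.88 FPKM and was at 0 in WT B, and kn1 and rab17 stayed at or below 0.48 FPKM. The rab17 model (GRMZM2G079440) was matched by its RefSeq name, while its deposited description names a chloroplast RNA polymerase subunit. The 15 photosynthesis and pericarp genes summed to 8.49 and 9.0 FPKM in dek A and B, against 6.51 and 4.43 FPKM in WT A and B. Of these, 14 were too low to be tested. The 1 tested, the chlorophyll a-b binding protein gene GRMZM2G038519, held much of each sum and did not pass (edgeR adjusted p = 0.0667). It had 7.6 and 6.9 FPKM in dek A and B, against 3.26 and 2.73 FPKM in WT A and B. The sums therefore say little about the tissue. The part of other tissues in the fall of ole1 and glb3 was not tested.

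Other genes of the oil-body coat, to which ole1 belongs, fell as well. Beside ole1, 11 genes were described as oleosins, caleosins or steroleosin-type dehydrogenases and 10 of them were tested; 5 fell, none rose and 5 did not pass, where 8.85% of all genes were lower. All 10 log2 fold changes were below 0, with a median of -1.79 against 0.01 over all genes. With ole1 counted, the list had 6 calls, and 5 to 7 with each library left out in turn.

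Among the oleosins, ole17 (GRMZM2G480954), described as an 18-kDa oleosin, had 14.5 and 14.93 FPKM in dek A and B, against 119.87 and 168.28 FPKM in WT A and B. Its log2 fold change was -3.59 ± 0.202 (SE; edgeR adjusted p = 0.00144). GRMZM2G333069, which carries the same 16-kDa oleosin description as ole1, had 6.24 and 3.22 FPKM in dek A and B, against 57.74 and 99.72 FPKM in WT A and B. It fell by 4.36 on the log2 scale (SE 0.398; edgeR adjusted p = 0.00408). How reads shared by such related genes were split is set by the authors' counting, although the deposited counts of ole1 were whole numbers in every library.

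The 5 oleosin genes together summed to 129 and 121 FPKM in dek A and B, against 756 and 900 FPKM in WT A and B. The share of ole1 in that sum was 64.3% and 64.2% in dek A and B, against 72.5% and 66.2% in WT A and B. Thus ole1 was the main oleosin transcript in both genotypes. The remaining pair of oleosins, GRMZM2G032104 at -0.3 and GRMZM2G096435 at -1.57 on the log2 scale, did not pass; they are named, after their values were seen, to complete the family.

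Of the caleosins and steroleosin-type genes, 3 fell. The caleosin gene GRMZM2G342685, for a calcium-binding coat protein, had 9.66 and 7.54 FPKM in dek A and B, against 33.32 and 23.3 FPKM in WT A and B, a log2 fold change of -2.01 ± 0.233 (SE; edgeR adjusted p = 0.00709). The steroleosin gene GRMZM2G108338, for a coat protein with a sterol dehydrogenase domain, had 0.64 and 0.5 FPKM in dek A and B, against 9.73 and 9.24 FPKM in WT A and B. It fell by 4.33 on the log2 scale (SE 0.3; edgeR adjusted p = 0.0022). A rarer gene of that class, GRMZM2G006119, named as the last of the coat's calls, had 1 count over both dek libraries and 96 over both WT libraries. Scaled to total counts and not by TMM, its WT level was 102 times the dek level. The exact 95% interval on that scale, 17.9 to 4080, covers counting error only.

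**Figure D2:**
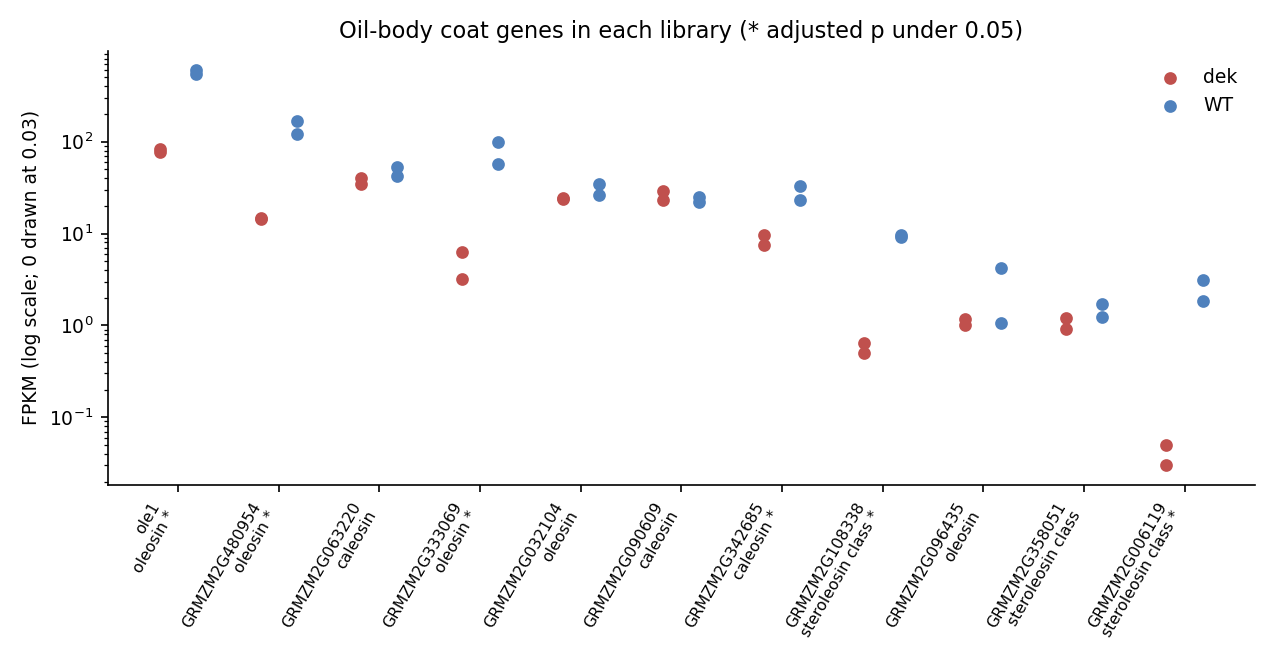
FPKM on a log axis of the 11 tested oil-body coat genes, ordered by mean level, with 1 point for each library, dek left of WT for each gene, and an asterisk at genes with an adjusted p under 0.05. The 6 genes with an asterisk have both dek points below both WT points, and ole1 is the most abundant. Genotypes did not overlap, in either direction, for 68.0% of all genes tested.

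Genes for making the oil that oil bodies hold, both enzymes and WRI1 transcription factors, were examined next. Of 13 genes for triacylglycerol synthesis, 9 were tested; 4 fell and none rose, and all 9 log2 fold changes were below 0, with a median of -0.56 against 0.01 over all genes. The share lower was 44.4%, against 8.85% of all genes, with a pair of WRI1 factors, which are not enzymes, among the 4 calls. The pair described as WRI1 factors, which activate fatty acid synthesis genes in Arabidopsis seeds, passed under all 12 alternative settings. WRI1 gene GRMZM2G124524 had 26 and 21.41 FPKM in dek A and B, against 44.28 and 54.85 FPKM in WT A and B, a log2 fold change of -1.37 ± 0.163 (SE; edgeR adjusted p = 0.00767). WRI1 gene GRMZM2G174834 had 9.94 and 11.8 FPKM in dek A and B, against 23.04 and 24.81 FPKM in WT A and B, and fell by 1.47 on the log2 scale (SE 0.15; edgeR adjusted p = 0.00549). For each gene, both dek libraries were below both WT libraries.

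The remaining calls for oil synthesis were for enzymes of the pathway. The phosphatidate phosphatase gene GRMZM2G154366 was at -0.56 ± 0.127 (log2, SE; edgeR adjusted p = 0.0374), and the glycerol-3-phosphate acyltransferase gene GRMZM2G159890 at -0.93 ± 0.195 (edgeR adjusted p = 0.0306). Leaving out any of the 4 libraries ended the call of GRMZM2G154366 (edgeR adjusted p 0.0699 to 0.172). Leaving out WT B, dek A or dek B ended that of GRMZM2G159890 (0.082 to 0.137). The count of 4 dropped to 2 without WT B, dek A or dek B, and to 2 with scaling to total counts alone.

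The globulins and late embryogenesis abundant (LEA) proteins held 26 genes beside glb3, of which 11 were tested. Of these, 5 fell, none rose and 6 did not pass, a share of 45.5% lower against 8.85% of all genes. Their median log2 fold change was -0.97, against 0.01 over all genes, and 8 of the 11 were below 0. The legumin gene leg1 (GRMZM2G174883), for an 11S-type storage globulin, had 703.12 and 999.98 FPKM in dek A and B, against 2695.42 and 2588.08 FPKM in WT A and B. Its log2 fold change was -1.93 ± 0.203 (SE; edgeR adjusted p = 0.00571), and in every library it was more abundant than glb3. The globulin-1-like gene GRMZM2G078441 had 34.28 and 29.62 FPKM in dek A and B, against 62.57 and 51.91 FPKM in WT A and B, and fell by 1.15 on the log2 scale (SE 0.147; edgeR adjusted p = 0.00936). For both genes the dek libraries were below the WT libraries. The legumin-like gene GRMZM2G005552, named after its values were seen, lay on the other side, with a mean of 6.78 FPKM in dek and 3.13 FPKM in WT and a log2 fold change of 0.81 that did not pass (edgeR adjusted p = 0.193).

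The globulin gene glb1 (GRMZM2G067919) was at -0.97 ± 0.174 (log2, SE; edgeR adjusted p = 0.0213). The dehydrin gene dhn2 (GRMZM2G373522), for a LEA protein of drying tissue, was at -1.03 ± 0.242 (edgeR adjusted p = 0.0406). The group 3 LEA gene GRMZM2G096475, named as the last of the 5 calls, had 5 and 0 estimated counts in dek A and B, against 49 and 184 in WT A and B (edgeR adjusted p = 0.0246). With glb3 counted, the list had 6 calls, which dropped to 2 without dek B, with calls ended for glb1 (edgeR adjusted p = 0.0844), dhn2 (0.106) and GRMZM2G078441 (0.0587). The median of the list was -1.41 without dek A and -1.04 without WT A, against -1.0 with all 4 libraries (log2). Leaving out a library also changed how many of its genes passed the low-count filter. These were 18 without dek A or WT A and 17 without dek B, against 12 with all 4 libraries, so counts of calls are not directly comparable. The dhn2 call was also lost without WT A (0.0535) and without WT B (0.0836). Scaling to total counts alone ended the calls of dhn2 (0.0906) and glb1 (0.0519), as did both limma fits on FPKM, and left 4 calls in the list. The glb3 and leg1 calls passed with each library left out.

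Genes that set aleurone fate, the setting of sal1, were mostly without a call. Of 6 such genes tested, sal1 included, 2 fell and none rose, against 8.85% of all genes lower and 7.98% higher; the median was -0.2 (log2). The genes for the receptor kinase CR4 (cr4, GRMZM2G051637), at 0.2 ± 0.175, and for the calpain DEK1 (dek1, GRMZM2G321753), at -0.03 ± 0.137 (log2, SE), both needed for aleurone identity, did not pass. The same was true of vp1 (GRMZM2G133398), a regulator of seed maturation and pigment, at -0.11 ± 0.155; these genes are named to complete the list, after their values were seen.

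The 2 that fell were the NAKED ENDOSPERM zinc-finger genes, which limit the aleurone to its normal layer. The gene nkd1 (GRMZM2G129261) had 113.64 and 79.91 FPKM in dek A and B, against 162.47 and 248.23 FPKM in WT A and B (edgeR adjusted p = 0.0213). The gene nkd2 (GRMZM5G884137) had 51.03 and 43.53 FPKM in dek A and B, against 60.55 and 76.81 FPKM in WT A and B (edgeR adjusted p = 0.023). Both dek libraries were below both WT libraries for each. Without dek A the edgeR adjusted p was 0.0553 for nkd1 and 0.0795 for nkd2, and without dek B 0.0869 and 0.103, so the count of 2 dropped to 0 in both cases. Without WT B nkd2 alone lost its call (0.0563). With scaling to total counts the median of the 6 genes was 0.11, the opposite sign.

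The ESCRT and vacuolar sorting machinery, in which sal1 acts on endosomes, showed no shared direction. Of 43 genes tested, sal1 included, 3 rose and 4 fell, shares of 6.98% and 9.3% that are close to the 7.98% and 8.85% of all genes. CHMP5-type gene GRMZM2G069827, described as a charged multivesicular body protein of the same family as sal1, had 40.48 and 43.05 FPKM in dek A and B, against 16.77 and 17.44 FPKM in WT A and B. It rose by 0.88 ± 0.133 (log2, SE; edgeR adjusted p = 0.0136). The CHMP4-type gene GRMZM2G044805 had 38.75 and 41.18 FPKM in dek A and B, against 49.68 and 54.52 FPKM in WT A and B, and fell by 0.68 on the log2 scale (SE 0.126; edgeR adjusted p = 0.0222). The lower call of GRMZM2G044805 was lost with scaling to total counts alone (edgeR adjusted p = 0.0774) and with both limma fits on FPKM (0.0622 and 0.0658). Under total counts the list had 4 higher and 2 lower calls and a median of 0.14, against -0.16 with TMM.

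The vacuolar sorting receptor gene vacs1 (GRMZM2G067546), for a carrier of storage proteins to the vacuole, was at -1.05 ± 0.142 (log2, SE; edgeR adjusted p = 0.0106), and the retromer gene GRMZM2G068489 (VPS29) at -0.61 ± 0.133 (edgeR adjusted p = 0.0328). The 7 calls of the list dropped to 3 without WT B, 1 without dek A and 0 without dek B. Without dek B the edgeR adjusted p was 0.0603 for vacs1, 0.0845 for GRMZM2G069827, 0.0866 for GRMZM2G044805 and 0.0766 for GRMZM2G068489. Without dek A it was 0.065 for GRMZM2G069827, 0.125 for GRMZM2G044805 and 0.159 for GRMZM2G068489. Without WT B it was 0.0666 for GRMZM2G044805 and 0.0776 for GRMZM2G068489, and without WT A 0.0635 for GRMZM2G068489.

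For the pigment pathway of the pac1 locus, 13 genes were matched, with both models of that name among them, and 8 were tested. Of these, 1 fell and none rose, and the median was -0.22 (log2). The share lower, 12.5%, was near the 8.85% of all genes. The chalcone isomerase gene chi1 (GRMZM2G155329), for an early enzyme of flavonoid synthesis, had 1.37 and 1.62 FPKM in dek A and B, against 5.82 and 6.84 FPKM in WT A and B. Its log2 fold change was -2.38 ± 0.315 (SE; edgeR adjusted p = 0.0101). The regulators c1 (GRMZM2G005066) and r1 (GRMZM5G822829) act with the product of the pac1 locus. They were listed at 0 in both WT libraries and at no more than 0.51 FPKM in dek, too low to be tested. The chi1 call was lost without dek A (edgeR adjusted p = 0.0671) or dek B (0.0532), where the list had 0 calls, and without WT A it had 2. With scaling to total counts alone the list had 3 calls, 2 of them higher, and a median of 0.08.

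**Figure D3:**
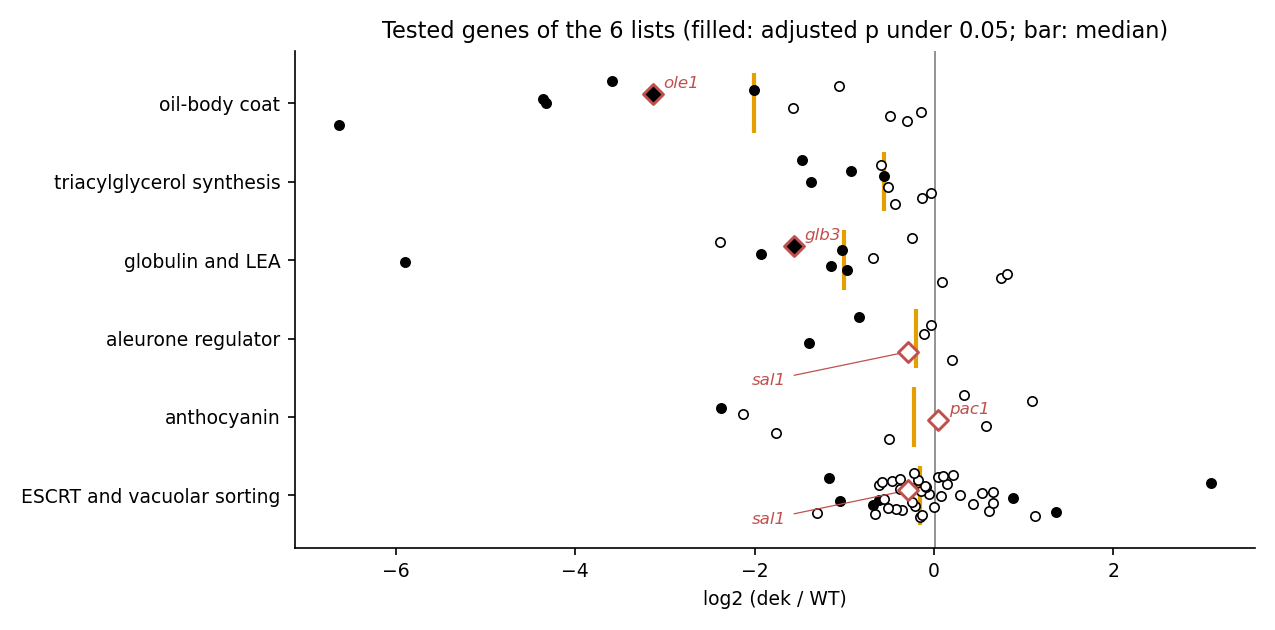
Log2 fold change (dek over WT) of each tested gene in the 6 lists, with filled points at an adjusted p under 0.05, diamonds for ole1, glb3, pac1 and sal1, an orange bar at each list's median and a grey line at the median of all genes, 0.01. The oil-body coat lies farthest to the left, with a median of -2.01, and the ESCRT and vacuolar sorting list spreads to both sides.

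The 4 genes' profiles over the 4 libraries, as log2 CPM centred on each gene's mean, were compared by Euclidean distance. Among themselves the nearest pair was pac1 and sal1, at a distance of 0.44, and the farthest pair ole1 and pac1, at 3.19. The distance between ole1 and glb3 was 1.62. Against 2901 described genes whose mean reached 10 FPKM, the nearest to ole1 were a jasmonate-induced protein gene (GRMZM2G025959, distance 0.26), a PVR3-like gene (GRMZM2G164440, 0.36) and a zinc transporter 4-like gene (GRMZM2G111300, 0.39). GRMZM2G025959 had 13.34 and 14.55 FPKM in dek A and B, against 95.66 and 87.83 FPKM in WT A and B. No oleosin was among these nearest genes.

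Nearest to glb3 were a secretory protein-like gene (GRMZM2G062471, distance 0.06), a ferredoxin-6 gene (GRMZM2G106190, 0.15) and a pectinesterase inhibitor domain gene (AC233850.1_FG002, 0.17). Nearest to pac1 were a malate dehydrogenase gene (GRMZM2G466833, 0.05), a nucleic acid binding protein gene (GRMZM2G163247, 0.05) and a gene described as chalcone synthase G (GRMZM2G380650, 0.06). Nearest to sal1 were the genes for the SAP-like protein BP-73 (GRMZM2G168335, 0.03) and the ribosomal protein L24 (GRMZM2G142640, 0.04), and GRMZM2G169695 (0.05). The last is described as AT-rich element binding factor 3 but named PYL8 in RefSeq. These distances rest on 4 libraries, 2 of each genotype, and are a description only.

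**Figure D4:**
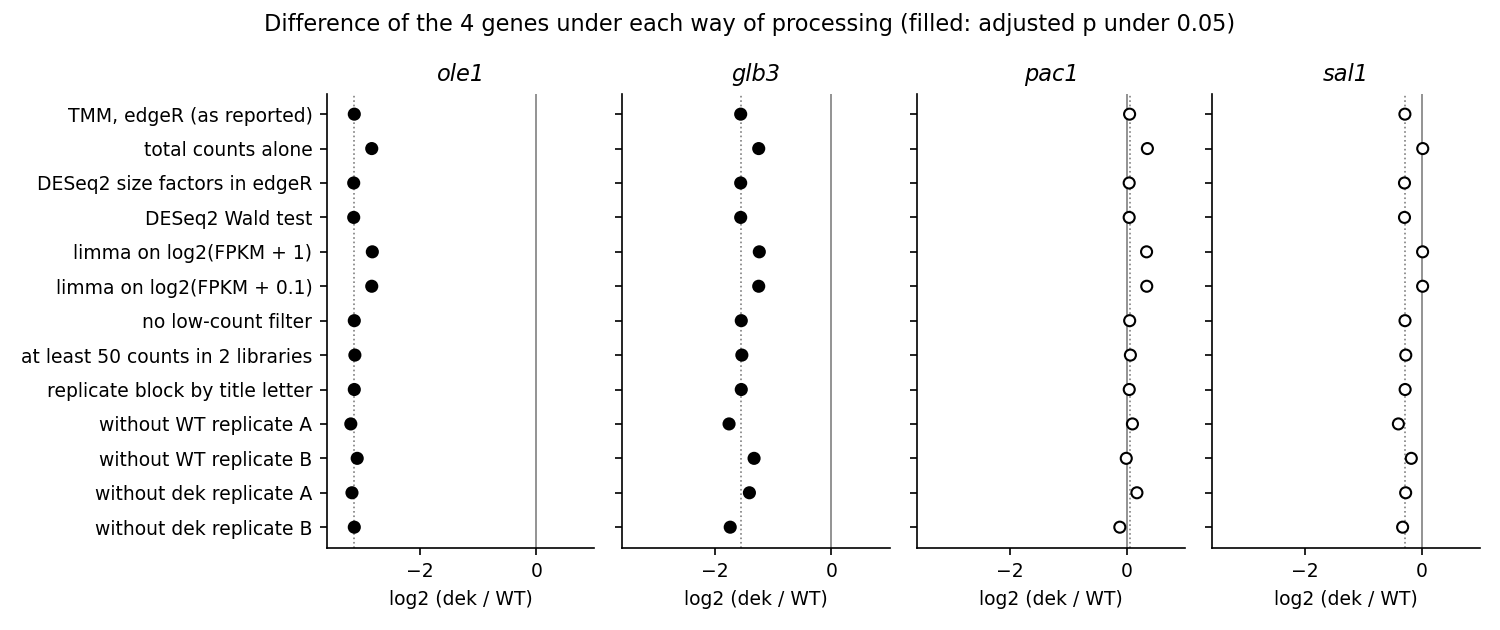
Log2 fold change (dek over WT) of ole1, glb3, pac1 and sal1 as reported (top) and under 12 other ways of processing, filled where the adjusted p was under 0.05, with a dotted line at the reported value. All points of ole1 (-3.19 to -2.82) and glb3 (-1.76 to -1.24) are filled, and those of pac1 (-0.12 to 0.36) and sal1 (-0.4 to 0.02) are open on either side of 0.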

How the data were processed

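The authors deposited 1 table per library with a length, an expected count and an FPKM value for each gene. Expected counts are the authors' RSEM-style estimates with no further normalization, per the file headers; the authors' FPKM values are scaled to effective length and library size, per the file headers. HISAT, Bowtie2, RSEM and GATK are named in the submitters' processing notes; for build and annotation, the sources used here give nothing. Genes absent from a library's table were set to 0. Total counts were 14776699 and 14703218 in dek A and B, and 14562359 and 13119658 in WT A and B.

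Counts were rounded, filtered with filterByExpr, scaled by TMM (factors 1.128 and 1.097 for dek A and B, 0.895 and 0.903 for WT A and B) and tested with edgeR 4.0.16 in R 4.3.3 (quasi-likelihood, two-sided, Benjamini-Hochberg over 24624 genes, threshold 0.05; biological coefficient of variation 0.226). SE is the log2 fold change over the root of the F statistic. The scripts were tested on simulated data. Alternatives were total counts, DESeq2 1.42.0 size factors and Wald test, limma 3.58.1 on log2(FPKM + 1) or log2(FPKM + 0.1), no filter, 50 counts in 2 libraries, a replicate block and each library left out; a lone library was then assumed to vary like the other genotype.

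Names came from the deposited descriptions and a RefSeq table (23676 of 34567 genes matched). Lists were matched by symbol or description, and 3 entries whose description names another protein were removed. The rab17 model was kept by its symbol in the embryo markers and in the globulin and LEA list, although its description names another protein. The genes and lists were chosen with earlier results of these data known. Named were the 4 genes, up to 4 called genes per list with the highest mean FPKM, the 3 nearest profiles per gene, and up to 2 markers per tissue with the highest mean FPKM, unless stated.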

Additional observations from a re-analysis of the deposited data

How the results depend on the processing

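Precision is limited by 2 pools a genotype, and which pools shared an ear is not given. The 2 calls among the 4 genes, ole1 and glb3, held under all 12 alternatives. The sign reversed for sal1 with total counts (0.0198) and with limma on log2(FPKM + 1) (0.0174) or log2(FPKM + 0.1) (0.0177), for pac1 without WT B (-0.00424) and dek B (-0.115; range -0.115 to 0.179 with a library left out), and for the embryo marker wox2A (GRMZM2G108933) without dek B (-0.0955; range -0.0955 to 0.296); none of these was a called value. Calls over all genes numbered 4143 (1965 higher) and 746 to 3697 with a library left out, 746 without dek A, 965 without dek B and 2667 without WT B. Total-count scaling moved the share of higher calls to 77.9%, against 47.4%.

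Left-out libraries gave 5 to 7 oil-body coat calls, 2 to 9 globulin and LEA, 0 to 2 aleurone regulator, 0 to 2 anthocyanin, 0 to 6 ESCRT and vacuolar sorting and 2 to 3 triacylglycerol synthesis. The globulin and LEA list then had 14 to 18 genes tested, against 12 in the main fit. Total counts and both limma fits each gave 1 aleurone regulator, 3 anthocyanin and 2 triacylglycerol synthesis calls, and the filter of 50 counts gave 2 anthocyanin calls. The letters A and B were not taken as pairs in the main fit. Deviations of WT A and dek A from their genotype means correlated at -0.022 over genes. With 2 pools a genotype, that value cannot show whether pools of the same letter shared an ear. The replicate block gave 1891 calls over all genes, 4 globulin and LEA, 4 ESCRT and vacuolar sorting, 0 aleurone regulator and 2 triacylglycerol synthesis; under it dhn2 did not pass (0.0689) and bap2 did (0.0404). The causes were not tested. Profiles on log2(FPKM + 1), an alternative chosen after seeing the data, shared 2 of 3 nearest genes for ole1 and 3 of 3 for each of glb3, pac1 and sal1.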
